A study of Mus musculus with 8 samples.

Results

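The genes described here are 10 markers of T cells and cytotoxic lymphocytes: the CD3 chain genes Cd3e, Cd3d and Cd3g, the co-receptor genes Cd4, Cd8a and Cd8b1, the cytokine receptor gene Il2rb, and the cytotoxic genes Gzmb, Prf1 and Nkg7. They were chosen by name, and all 10 were found by Ensembl identifier among the 34745 genes of the files. They were measured by RNA-seq in 8 subcutaneous tumours grown in C57BL/6J mice from B16F10, a mouse melanoma cell line kept in serum-supplemented medium before injection. Of the tumours, 4 (ND 1 to ND 4) grew in hosts fed normally (ND, for normal diet) and 4 (HCD 1 to HCD 4) in hosts whose diet was high in cholesterol (HCD). Both groups share the cell line, the host strain and the site of injection. The labels give no age of the mice, length of the diet or cholesterol content. They also do not say whether each tumour came from a separate mouse, so the p-values reflect the spread among these libraries alone, and that spread may be technical. Whole tumour pieces were sequenced, so fewer cells of a type and less RNA per cell cannot be told apart.

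T cells recognise antigen through a receptor whose signal is passed into the cell by the CD3 chains, and CD4 or CD8 binds the MHC molecule that presents the antigen. CD8+ T cells and natural killer (NK) cells kill target cells by releasing granules that hold the pore-forming protein perforin (Prf1) and proteases such as granzyme B (Gzmb). IL-2 and IL-15, which sustain these cells, both signal through the receptor chain encoded by Il2rb. B16F10 tumours are known for low MHC class I expression and few infiltrating T cells.

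Of the 10 genes, 7 passed the expression filter, and 0 of these 7 were called different between the diets, against 0.182% of all tested genes. The other 3, Cd3e, Cd3d and Cd4, were below the filter and not in that test. In a fit without the filter 0 of the 10 were called, against 0.406% of all genes fitted. With so few calls over all genes, 0 calls say little about these markers. Counts of all 10 genes were low. A single library held between 1 and 160 reads of any of these genes, out of 14599222 to 17722093 counts in all. Summed over the 10 genes, the ND tumours held 442, 55, 380 and 195 counts in the order ND 1 to ND 4, and the HCD tumours 313, 381, 313 and 251. ND 2 was by far the lowest, at 3.25 CPM (counts scaled to an equal library total; exact 95% Poisson interval 2.45 to 4.23, which here and below covers counting error only). The other 7 tumours ran from 13.4 to 25.1 CPM, and the HCD values lay inside that range. Cd4 was the 1 gene of the 10 whose groups did not overlap, at 1 to 4 counts in ND tumours and 7 to 22 in HCD tumours. Groups were apart in either direction for 6.23% of all genes with a count and 9.67% of tested genes.

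Libraries that stood apart touch these low counts. ND 2 also had the least of other leukocyte RNA: Ptprc, which encodes the pan-leukocyte protein CD45, had 41 counts there against 141 to 220 in the other 7 tumours. ND 2, ND 3 and ND 4 had at least 1 count on 445 to 473 of 1728 olfactory, vomeronasal and trace amine receptor genes, against 8 to 13 in the other 5 libraries. In these 3 libraries 95% of the receptor genes had at most 2 counts, and 1.16 to 1.39% had 3 or more. A marker count of 1 or 2 in ND 2 to ND 4 therefore lies within the range of 95% of these receptor genes there, and counts of 3 or more were rare among them. The summed level of all receptor genes was 55.7 ± 19 CPM in ND and 44.7 ± 5.77 in HCD (mean ± SD over 4 tumours, as for all such values below), and Olfr56 alone made up most of it in 6 of the 8 libraries, all but ND 2 and ND 4. Skeletal muscle genes were highest in ND 1 and ND 2, at 29.7 and 48.3 CPM summed over 6 genes, against 2.06 to 9.32 CPM in the other tumours. The part of these differences in the results below was not tested, apart from the values given without ND 2.

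**Figure D1:**
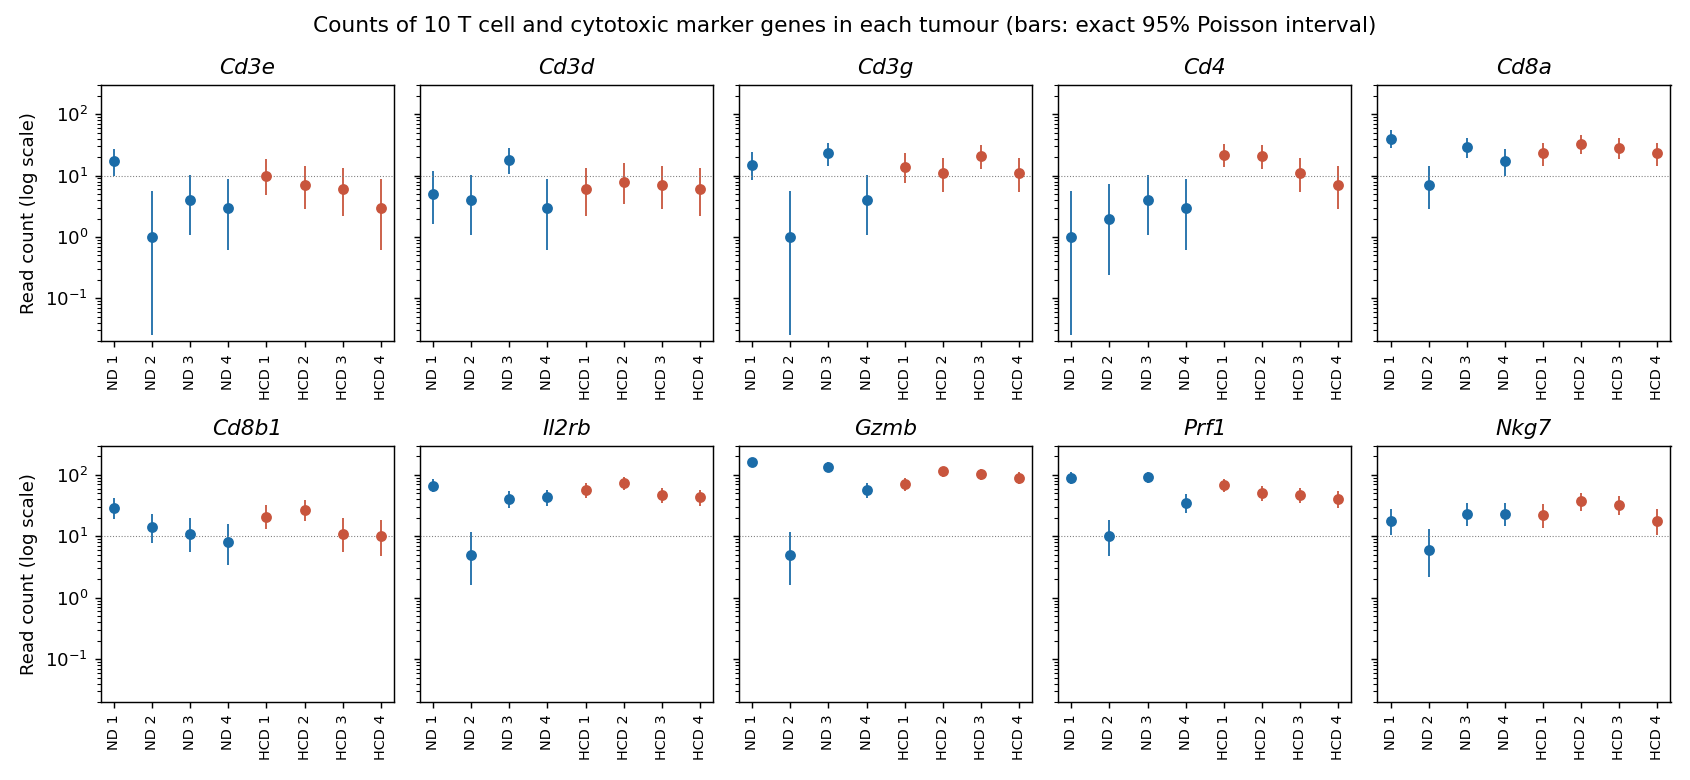
Read counts (log scale) of the 10 marker genes in each of the 8 tumours, ND in blue and HCD in red. Points are counts, bars are exact 95% Poisson intervals and the dotted line marks 10 counts. ND 2 had under 10 counts for 8 of the 10 genes, and the groups are apart only for Cd4.

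Levels per gene length were compared with the deposited FPKM, which divide counts by gene length and library total. Gzmb was the most abundant of the 10, with a mean of 3.86 FPKM over the 8 tumours, followed by Prf1 at 1.58, Nkg7 at 0.854, Il2rb at 0.777 and Cd8b1 at 0.662. The CD3 genes came next, with Cd3g at 0.558, Cd3d at 0.323 and Cd3e at 0.265 FPKM, ahead of Cd8a at 0.195 and Cd4 at 0.109. By these means, and also with annotated exon lengths (below), the 3 cytotoxic genes ranked above the receptor and co-receptor genes. After adjustment none of the 9 pairs of neighbours in this order passed (exact sign-flip permutation test of the log2 ratio within the 8 tumours, two-sided, lowest Benjamini-Hochberg adjusted p = 0.0703). The smallest p that 8 tumours allow is 0.00781, so a single pair at that floor could not pass on its own. The pairs were also set by the same FPKM that were tested, so no conclusion is drawn from the p-values, adjusted or not. By deposited FPKM, Gzmb was above Prf1 in 7 of 8 tumours, Prf1 above Nkg7 in 8 of 8 and Cd8a above Cd4 in 7 of 8. This order depends on the gene lengths behind the FPKM. The implied lengths of Cd8a (7695 bases) and Nkg7 (1600) exceed even the span of the annotated genes, 5747 and 1177 bases, so they cannot be exon lengths of that annotation. With the annotated exon length of GENCODE M21 instead, a choice made after seeing the data, Nkg7 ranked second at 1.49 and Prf1 came after it at 1.25. Cd8a moved from rank 9 to 6 at 0.412, Cd3e from 8 to 10 at 0.0932, and Gzmb stayed first at 3.81. By raw counts Cd8a exceeded Cd8b1 in 7 of 8 tumours.

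**Figure D2:**
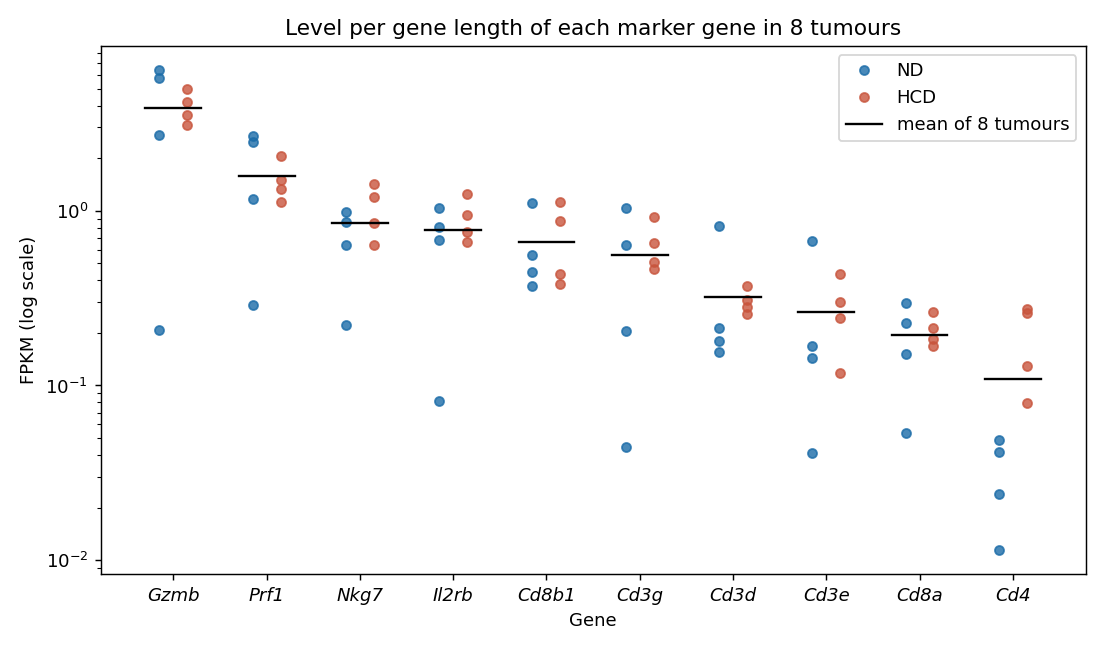
Deposited FPKM (log scale) of each marker gene in the 8 tumours, ordered by the mean over all tumours (black line). On the deposited scale the mean falls from 3.86 for Gzmb to 0.109 for Cd4, and the lowest ND point of Gzmb, Prf1, Nkg7, Il2rb, Cd3g, Cd3e and Cd8a is ND 2.

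The CD3 genes lie together on mouse chromosome 9 (mm10): Cd3g (ENSMUSG00000002033) at 44969572 to 44980431 on the minus strand, Cd3d (ENSMUSG00000032094) at 44981786 to 44987339 on the plus strand, and Cd3e (ENSMUSG00000032093) at 44998740 to 45009627 on the minus strand. Cd3g and Cd3d are read in opposite directions from starts 1354 bases apart. The 250 bases before each start, from RefSeq (GRCm38.p6), are shown because they fill part of that gap. Capitals mark matches on either strand to a short form of the motifs of ETS (AGGAAG), RUNX (TGTGGT) and T-box (GGTGTG) factors and to the core letters of CREB-type factors (TGACG), and a match is not evidence of binding.
Cd3g, chr9:44980432-44980681, minus strand: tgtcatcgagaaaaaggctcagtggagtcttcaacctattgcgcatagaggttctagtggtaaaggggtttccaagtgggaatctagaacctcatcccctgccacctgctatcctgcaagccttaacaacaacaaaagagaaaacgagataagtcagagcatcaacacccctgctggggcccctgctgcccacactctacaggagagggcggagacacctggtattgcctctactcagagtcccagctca
Cd3d, chr9:44981536-44981785, plus strand: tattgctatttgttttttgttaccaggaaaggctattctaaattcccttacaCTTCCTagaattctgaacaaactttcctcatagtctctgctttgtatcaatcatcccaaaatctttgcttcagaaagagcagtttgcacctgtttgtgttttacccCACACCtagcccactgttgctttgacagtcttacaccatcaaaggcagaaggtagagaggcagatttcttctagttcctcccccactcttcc
The Cd3d window held 1 ETS and 1 T-box match, and the Cd3g window none of the 4 motifs. Among 32851 windows of the same length in the RefSeq table, 29.5% held the ETS letters, 14.0% the RUNX, 16.3% the T-box and 17.8% the CREB letters.

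Cd3e, Cd3d and Cd3g encode the epsilon, delta and gamma chains of the receptor complex. Cd3e, whose exons overlap those of the oppositely oriented Gm48719, had 17, 1, 4 and 3 counts in ND 1 to ND 4 and 10, 7, 6 and 3 in HCD 1 to HCD 4. The highest and the lowest of the 8 tumours were thus both on the normal diet. Cd3d had 5, 4, 18 and 3 counts in ND and 6, 8, 7 and 6 in HCD, where ND 3 stood above all other tumours. Cd3g had 15, 1, 23 and 4 counts in ND and 14, 11, 21 and 11 in HCD. For each chain the HCD tumours lay between the extremes of the ND tumours or at one of them, so the groups overlapped.

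Cd3g was the only CD3 gene that passed the expression filter. Its mean was 0.654 ± 0.612 CPM (TMM-normalized from here on) in ND tumours and 0.835 ± 0.267 in HCD tumours. The log2 fold change was 0.34, with a 95% interval from -1.09 to 1.77 (edgeR quasi-likelihood test, adjusted p = 0.858 over all 13186 genes tested). Without ND 2 the log2 fold change was -0.04. Cd3e was at 0.372 ± 0.408 CPM in ND and 0.385 ± 0.178 in HCD, and Cd3d at 0.462 ± 0.434 and 0.397 ± 0.0641 (two-sided exact permutation p = 1 for each, with 0.0286 the smallest that 4 against 4 allows). The interval of Cd3g thus covers differences in either direction. Summed over the 3 chains, ND tumours held 6 to 45 counts and HCD tumours 20 to 34.

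Of a list of 27 further genes of the T cell receptor and T cell identity, 13 passed the expression filter. In edgeR 0 passed the test in either direction, and DESeq2 and limma-voom called 0. Over all tested genes 14.7% had an unadjusted edgeR p under 0.05, against 0 of these 13. Their median log2 fold change was 0.264, against 0.0049 over all genes tested, and -0.053 without ND 2. Trac, the constant region of the receptor alpha chain, had 14, 4, 11 and 12 counts in ND and 31, 19, 8 and 12 in HCD (log2 fold change 0.69, SE 0.509, adjusted p = 0.585). Cd247, the zeta chain of the receptor complex, had 19, 4, 10 and 4 counts in ND and 11, 16, 15 and 4 in HCD (log2 fold change 0.26, adjusted p = 0.88). Ccr7, a homing receptor of naive T cells and mature dendritic cells, was at 1.05 ± 0.59 CPM in ND and 0.702 ± 0.556 in HCD. Lcp2, an adaptor of receptor signalling that myeloid cells also carry, was at 6.89 ± 3.47 and 8.53 ± 1.93 CPM. Among the 14 genes below the filter, 4 had the higher mean CPM in HCD, 8 the lower and 2 no count in any library. They ran in both directions. Foxp3, the defining factor of regulatory T cells, had 0, 6, 0 and 0 counts in ND, all in ND 2, and 5, 14, 7 and 4 in HCD. Bcl11b, a T lineage factor, had 7 summed counts in ND and 28 in HCD. Icos, a costimulatory receptor, had 26 and 18, and Skap1, a signalling adaptor, 29 and 17. Foxp3, Bcl11b, Icos and Skap1 were named after their values were seen. Groups were apart for Bcl11b only, 1 of the 27 genes of the list (3.7%), against 6.23% of all genes with at least 1 count. Bcl11b was 1 of the 14 listed genes below the filter. Among all genes below it with at least 20 counts the share was 3.51%, a set that leaves out listed genes with fewer counts. In ND 2, 9 of the 27 genes had no count, against 2 to 5 in the other tumours.

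Cd4 (ENSMUSG00000023274, chromosome 6, 124864692 to 124888221, minus strand) encodes the co-receptor of helper and regulatory T cells, and some dendritic cells carry it too. It had 1, 2, 4 and 3 counts in ND 1 to ND 4 and 22, 21, 11 and 7 in HCD 1 to HCD 4. All HCD tumours were above all ND tumours, with HCD 4 closest to the ND group. The intervals of single libraries still met, since 4 counts in ND 3 allow 1.09 to 10.2 and 7 counts in HCD 4 allow 2.81 to 14.4. The group sums were 10 counts (exact 95% Poisson interval 4.8 to 18.4) in ND and 61 (46.7 to 78.4) in HCD. Mean CPM was 0.158 ± 0.0856 for ND and 0.906 ± 0.461 for HCD, a ratio of 5.72 (two-sided exact permutation p = 0.0286, unadjusted, higher in 4 of 4 HCD tumours, and the smallest p that 4 against 4 allows).

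Cd4 did not pass the expression filter, which asks for about 10 counts in 4 libraries, and so was not in the test across genes. Fitted without the filter on 22893 genes, its log2 fold change was 2.49 (95% interval 1.15 to 3.82), and it did not pass (edgeR, adjusted p = 0.108). Of these genes 0.406% were called in that fit, and in the filtered fit 0.182% were. Among the 1997 genes below the filter with at least 20 counts in all, 1.55% had all HCD tumours above all ND tumours, as Cd4 did. Leaving out any 1 library kept the ratio between 4.72 and 7.04. The 5 such fits in which Cd4 passed the filter gave log2 fold changes of 2.20 to 2.78 with edgeR adjusted p-values from 0.15 to 0.201. ND 1, the ND library with few counts on sensory receptor genes, had the lowest Cd4 count. The exact 95% Poisson interval of its 1 count, 0.0253 to 5.57, covers the 2 to 4 counts of the other ND tumours. The part of the counts on receptor genes in the Cd4 difference was not tested.

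Ptprc, read here for leukocyte RNA as a whole, varied between single tumours. Between the diets its groups overlapped and it did not pass (edgeR adjusted p = 0.638). Per 100 counts of Ptprc, Cd4 was at 0.455, 4.88, 2.84 and 2.00 counts in ND and at 11.0, 10.7, 5.31 and 3.83 in HCD. On this scale ND 2 lay above HCD 4 and the groups overlapped, with a ratio of means of 3.03 (two-sided exact permutation p = 0.0571, chosen after seeing the data). Of 7 dendritic cell genes 3 passed the expression filter and 0 the test in edgeR, DESeq2 and limma-voom. Unadjusted, 0 of these 3 had an edgeR p under 0.05, against 14.7% of all tested genes. The 7 genes had a summed level of 11.4 to 21.3 CPM in ND and 20.6 to 22.1 CPM in HCD. Most of this sum came from Itgax (7.81 ± 4.05 CPM in ND and 11.6 ± 0.718 in HCD) and Zbtb46 (7.56 ± 1.43 and 8.02 ± 0.411). Among the other dendritic cell genes Xcr1, a receptor of cross-presenting dendritic cells, had 10, 0, 3 and 11 counts in ND and 15, 14, 20 and 8 in HCD. Macrophage genes had a summed level of 332 to 557 CPM in ND and 501 to 657 in HCD. Of these genes 12 of 12 were tested and 0 passed in edgeR, and DESeq2 called 1. Unadjusted, 4 of the 12 had an edgeR p under 0.05, against 14.7% of all tested genes. The part of dendritic cell and macrophage genes in the Cd4 difference was not tested.

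Cd8a (ENSMUSG00000053977, chromosome 6, 71373427 to 71379173) and Cd8b1 (ENSMUSG00000053044, chromosome 6, 71322788 to 71337494) encode the chains of the co-receptor of cytotoxic T cells. Cd8a had 40, 7, 29 and 17 counts in ND and 23, 33, 28 and 23 in HCD. Again both the highest tumour, ND 1, and the lowest, ND 2, were on the normal diet. Mean CPM was 1.42 ± 0.805 for ND and 1.57 ± 0.312 for HCD, with a log2 fold change of 0.14 (95% interval -0.81 to 1.09, edgeR adjusted p = 0.917), which was -0.16 without ND 2. Cd8b1 had 29, 14, 11 and 8 counts in ND and 21, 27, 11 and 10 in HCD. It was the only member besides Cd3d and Cd4 for which ND 2 was not the lowest tumour. Its log2 fold change was 0.11 (95% interval -0.92 to 1.15, edgeR adjusted p = 0.947). Some dendritic cells also carry CD8 alpha, while the beta chain is more restricted to T cells.

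The balance of the co-receptors followed from these counts. The ratio of Cd8a to Cd4 in FPKM was 25.8, 2.26, 4.67 and 3.65 in ND 1 to ND 4 and 0.674, 1.01, 1.64 and 2.12 in HCD 1 to HCD 4. The highest HCD ratio and the lowest ND ratio nearly met, and the ND 1 ratio rests on 1 count of Cd4. The size of the ratio also depends on the implied lengths of both genes, which exceed their annotated exons. Since Cd8a did not separate the groups, the ratio repeats the Cd4 counts and was not tested.

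Il2rb (ENSMUSG00000068227, chromosome 15, 78479256 to 78495271) encodes the shared beta chain of the IL-2 and IL-15 receptors, found on NK cells and activated or memory CD8+ T cells. It had 67, 5, 41 and 43 counts in ND and 56, 73, 47 and 43 in HCD. ND 2 was the only tumour outside the range of 41 to 73. Mean CPM was 2.41 ± 1.51 for ND and 3.23 ± 0.882 for HCD, with a log2 fold change of 0.42 (95% interval -0.73 to 1.57, edgeR adjusted p = 0.772). Without ND 2 it was 0.05, so most of the value came from that tumour.

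Of 12 other genes of the IL-2 and IL-15 receptor pathway, 10 passed the expression filter and 0 the test in edgeR, DESeq2 and limma-voom. Over all tested genes these called 0.182%, 3.31% and 0.144%. Unadjusted, 0 of these 10 had an edgeR p under 0.05, against 14.7% of all tested genes. In HCD 6 were higher and 4 lower, with a median log2 fold change of 0.009. Il2 itself had no count in any library. Il2rg, the gamma chain that Il2rb partners with, had 135, 41, 126 and 101 counts in ND and 155, 131, 190 and 142 in HCD. By CPM all HCD tumours were above all ND tumours for Il2rg, a separation that 9.67% of tested genes had in one direction or the other (log2 fold change 0.54, SE 0.304, adjusted p = 0.459). Jak1, the kinase bound to the beta chain, was at 121 ± 3.07 CPM in ND and 113 ± 4.45 in HCD, and Stat5b, a transcription factor that the receptor activates, at 46.4 ± 6.67 and 52.8 ± 2.41 CPM. Jak1 and Stat5b are expressed in most cell types, and their levels were far above that of Il2rb.

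Gzmb (ENSMUSG00000015437, chromosome 14, 56258838 to 56262260, minus strand) and Prf1 (ENSMUSG00000037202, chromosome 10, 61297833 to 61304680, plus strand) lie on different chromosomes and encode the protease and the pore-forming protein of the same granules. The 250 bases before their RefSeq starts (GRCm38.p6) are shown for this reason, with capitals as above. For Gzmb that start lies 74 bases before the one in the GENCODE annotation and for Prf1 3 bases inside it. For both genes the bases just after the RefSeq start were not found in a GENCODE M21 transcript, unlike those of Cd3g and Cd3d. Their motif positions therefore hold for the RefSeq starts only.
Gzmb, chr14:56262335-56262584, minus strand: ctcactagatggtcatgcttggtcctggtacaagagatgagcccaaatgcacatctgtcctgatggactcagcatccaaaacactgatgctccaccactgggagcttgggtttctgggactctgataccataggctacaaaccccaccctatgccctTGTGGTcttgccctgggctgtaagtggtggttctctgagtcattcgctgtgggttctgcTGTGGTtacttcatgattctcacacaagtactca
Prf1, chr10:61297586-61297835, plus strand: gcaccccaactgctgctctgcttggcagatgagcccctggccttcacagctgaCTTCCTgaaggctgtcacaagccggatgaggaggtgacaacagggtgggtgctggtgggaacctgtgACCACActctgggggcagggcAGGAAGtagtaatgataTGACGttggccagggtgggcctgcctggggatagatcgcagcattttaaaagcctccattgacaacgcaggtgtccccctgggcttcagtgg
The Gzmb window held 2 RUNX matches, at 93 to 88 and 34 to 29 bases before the start. The Prf1 window held 1 RUNX match, 2 ETS matches and 1 CREB match. The RUNX letters are in both windows, against 14.0% of all windows, which describes these sequences and says nothing of which factor acts on them.

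Gzmb had 160, 5, 136 and 56 counts in ND 1 to ND 4 and 71, 114, 102 and 89 in HCD 1 to HCD 4. The ND tumours spanned from the lowest to the highest of all 8, while the HCD tumours lay close together. The group means were almost equal, at 5.43 ± 4.14 CPM for ND and 5.52 ± 1.14 for HCD, with a log2 fold change of 0.02 (95% interval -1.36 to 1.40, edgeR adjusted p = 0.993). Without ND 2 it was -0.38 and still did not pass (adjusted p = 0.595).

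Prf1 had 90, 10, 91 and 35 counts in ND and 68, 50, 47 and 41 in HCD. Its order in the ND group was that of Gzmb apart from ND 1 and ND 3, with ND 2 lowest and ND 4 next. In the HCD group the order differed, since HCD 1 had the least Gzmb and the most Prf1. The mean was 3.45 ± 2.36 CPM in ND and 3.04 ± 0.751 in HCD (log2 fold change -0.19, 95% interval -1.33 to 0.95, edgeR adjusted p = 0.908, and -0.54 without ND 2). Nkg7 (ENSMUSG00000004612, chromosome 7, 43437073 to 43438249), a granule membrane protein of NK and cytotoxic T cells, had 18, 6, 23 and 23 counts in ND and 22, 37, 33 and 18 in HCD. Its log2 fold change of 0.56 was the largest among the 7 tested members (95% interval -0.40 to 1.52, edgeR adjusted p = 0.608), and it was 0.27 without ND 2. None of these genes separated the diets.

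The background for these calls was low in most settings. Besides the shares given for Cd4, 0.174% of tested genes were called with RLE factors, 0.144% with limma-voom, 0.379% with robust dispersion, 0.0379% with a term for ND 2 to ND 4 (which compares HCD with ND 1 alone) and 3.31% with DESeq2. In each of these fits 0 of the 7 tested markers were called, and DESeq2 gave an adjusted p for only 3 of them. Without the filter 0 of 10 were called. Without the filter, 1.3% of genes had a log2 fold change at least as high as that of Cd4. All HCD tumours lay above all ND tumours for 4.94% of tested genes and for 0 of the 7 tested markers.

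**Figure D3:**
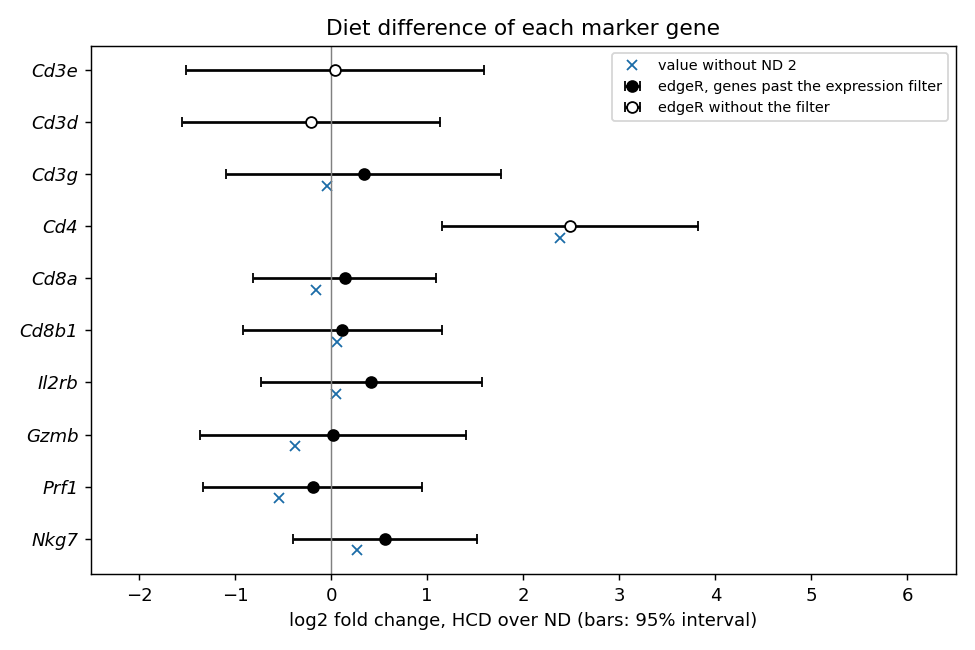
Log2 fold change of HCD over ND for each marker gene with its 95% interval, from edgeR with the expression filter (filled) or, for Cd3e, Cd3d and Cd4, without it (open). Crosses give the value without ND 2 where it could be tested. Every interval includes 0 except that of Cd4, whose adjusted p was 0.108.

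Gzmb has close relatives next to it on chromosome 14, of which Gzmc, Gzmd, Gzme, Gzmf and Gzmg resemble each other, so that reads may be split among them. Their summed counts were 413, 44, 399 and 131 in ND and 118, 150, 143 and 96 in HCD. ND 1 and ND 3 were far above the rest and ND 2 below. Of 25 further genes of cytotoxic granules and NK cells 9 passed the expression filter and 0 the test in edgeR. DESeq2 and limma-voom called 0. Over all tested genes 14.7% had an unadjusted edgeR p under 0.05, and here 1 gene did. That gene, Gzmg, had 56, 11, 40 and 16 counts in ND and 10, 11, 21 and 13 in HCD (log2 fold change -1.21, SE 0.491, adjusted p = 0.297). Gzmf was at 5.02 ± 4.35 CPM in ND and 2.13 ± 0.984 in HCD, and Gzmd at 3.12 ± 2.51 and 1.61 ± 0.387 CPM. The 5 relatives had log2 fold changes of -1.24 to -0.70, while that of Gzmb was 0.02, a contrast that was not tested. These relatives were all 5 of the lower genes among the 9 tested. The other 4 were higher in HCD, with log2 fold changes of 0.02 to 0.39. Of markers more particular to NK cells, Ncr1 had 0 to 4 counts and Klrb1c 0 to 14 counts per library, where Cd3e had 1 to 17. Among other genes of this list, Klre1 had 0 to 5, Klrk1 1 to 28 and Tbx21 72 to 333 counts. Apart from Cd3e, these genes were, like Gzmc, Gzme and Il2, named after their values were seen. In ND 2, 13 of the 25 genes had no count, against 1 to 4 in the other tumours.

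Dividing by Ptprc put the markers on the scale of leukocyte RNA. Gzmb was at 72.7, 12.2, 96.5 and 37.3 counts per 100 Ptprc counts in ND 1 to ND 4 and 35.5, 57.9, 49.3 and 48.6 in HCD 1 to HCD 4. ND 2 remained the lowest tumour for Gzmb on this scale, and ND 3 and ND 1 the highest. Cd8a was at 18.2, 17.1, 20.6 and 11.3 in ND and 11.5, 16.8, 13.5 and 12.6 in HCD, and here ND 2 was no longer low. The CD3 sum was at 16.8, 14.6, 31.9 and 6.67 in ND and 15, 13.2, 16.4 and 10.9 in HCD, with ND 3 highest and ND 4 lowest. Prf1 ran from 23.3 to 64.5 in ND and 22.4 to 34.0 in HCD, and Il2rb from 12.2 to 30.5 and 22.7 to 37.1, with ND 2 lowest. For all 10 genes the ratio of the highest to the lowest CPM was larger among ND than among HCD tumours. ND 2 was the lowest of the 8 tumours for 7 of them, and for Cd8b1 the ratios were close, at 2.99 and 2.88. The share over all genes was not computed for this ratio. By the SD of CPM, ND was wider for 7 of the 10, and for 55.9% of all tested genes.

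**Figure D4:**
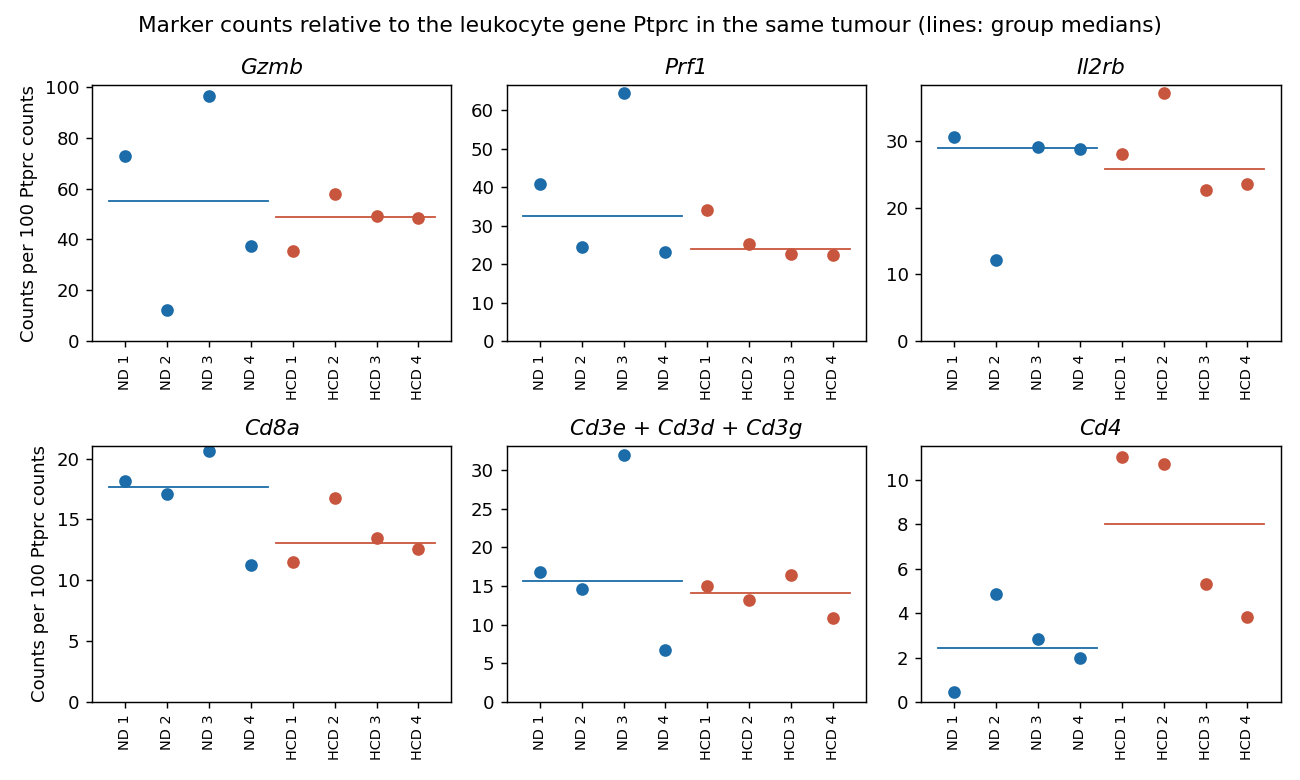
Counts of marker genes per 100 counts of Ptprc in the same tumour, ND in blue and HCD in red, with lines at the group medians. Gzmb runs from 12.2 to 96.5 in ND and from 35.5 to 57.9 in HCD, and for Cd4 the ND 2 point lies above that of HCD 4.

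Among other leukocyte genes, all 8 general ones were tested and were higher in HCD, and 0 passed in edgeR, DESeq2 and limma-voom. Against 14.7% of all tested genes, 1 of these 8 had an unadjusted edgeR p under 0.05. Their median log2 fold change was 0.561, and 0.307 without ND 2. Ptprc was at 8.54 ± 4.35 CPM in ND and 11.6 ± 0.788 in HCD (adjusted p = 0.638), and Cd53, a leukocyte tetraspanin, at 6.62 ± 2.36 and 11.4 ± 1.35 CPM (adjusted p = 0.197). Adgre1, which encodes the macrophage protein F4/80, was at 8.22 ± 2.37 and 12.4 ± 2.32 CPM (adjusted p = 0.271). Mrc1, the macrophage mannose receptor, was at 9.05 ± 1.96 and 20.3 ± 4.37 CPM (adjusted p = 0.0506, while DESeq2 called it). B and plasma cell genes had a summed level of 0.301 to 2.63 CPM and keratinocyte genes at most 0.114 CPM in any tumour. Melanocyte genes, which mark the injected line, summed to 25500 to 29600 CPM.

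The 5 tested genes whose pattern over the 8 tumours was most like the mean of the CD3 genes were Unk, Plscr3, Ntng2, Bcl3 and Ly6c2 (Pearson r of log2 CPM from 0.949 to 0.969, and from 0.884 to 0.952 over the 7 tumours without ND 2). These values describe 8 libraries that share the low ND 2 and ND 4, and they were picked as the highest among all tested genes, so no p is given. Of these, Ly6c2 marks monocytes and is carried by some CD8+ T cells, and it had 48, 5, 33 and 14 counts in ND and 37, 37, 45 and 23 in HCD. Among the markers Prf1 came closest to the CD3 mean (r = 0.926, and 0.815 without ND 2), followed by Cd8a (0.897 and 0.733) and Gzmb (0.876 and 0.747). Cd8b1, at 0.341 over the 8 tumours and 0.467 without ND 2, ranked far lower. The r of Il2rb went from 0.767 to 0.158 and that of Nkg7 from 0.658 to 0.002 without ND 2, so their likeness to the CD3 genes rested on that tumour.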

How the data were processed

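The authors deposited, per the file headers, a column of counts and a column of FPKM for each of 8 libraries. The deposited counts are unnormalized whole numbers, 1 per Ensembl identifier. The deposited FPKM scale them by gene length and library total, since the implied length agreed between libraries within 1% for 100% of values from 10 or more counts. Tools named, per the submitters' processing notes, are TopHat2 2.0.9, CASAVA 1.8, edgeR and HTSeq, with the build mm10. Which annotation and strand setting were used is not given in the sources read. According to the labels' protocols, RNA was isolated with a column kit and libraries made with the TruSeq RNA kit. Names and positions are from GENCODE M21 (34267 of 34745 identifiers matched). Only Cd3e shares exon positions with another annotated gene, Gm48719, which is not in the files. Promoters matched for 7 of the 10 markers.

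Counts were tested with edgeR 4.0.16 (R 4.3.3, limma 3.58.1): TMM factors, expression filter (minimum count 10, total 15), quasi-likelihood test with diet as the only term on all 8 libraries, Benjamini-Hochberg adjustment, threshold 0.05. The fit was tested on simulated counts. Alternatives were DESeq2 1.42.0, limma-voom, other factors, no filter, robust dispersion, a replicate block, a term for ND 2 to ND 4 (leaving ND 1 to stand for ND) and leaving out each library. Replicate numbers came from the labels. The markers, lists and term were chosen with earlier results of these data known. Named were the 10 markers, up to 3 genes of each list with the smallest p, Ptprc, Adgre1, Cd247 and the 5 genes most like the CD3 mean.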

Additional observations from a re-analysis of the deposited data

Results flagged for a closer look

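A library was listed where its gap to the nearest of its group as a share of the group's range exceeded Dixon's 95% critical value. Of 98 groups of 4 values checked, 10 were listed, and chance lists about 1 in 20. Among the markers, Cd3d stood out in ND 3 at 1.11 CPM, with the other ND tumours at most at 0.286. The ratio of Cd8a to Cd4 in FPKM stood out in ND 1 at 25.8, where Cd4 had 1 count. Il2rg was lowest in ND 2 at 2.47 CPM, against 7.01 and more in the other ND tumours. In the HCD group, C1qc (95.2 CPM), Acta1 (1.33 CPM) and Myh4 (0.692 CPM) were highest in HCD 3 and Sox10 (869 CPM) in 1 tumour. Lowest in 1 HCD tumour were Itgax (10.5 CPM), Ptprc (10.4 CPM) and Unk (41.1 CPM).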

How the results depend on the processing

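The spread between ND tumours limits comparisons even where counts were high, as for Gzmb (357 summed counts in ND and 376 in HCD, at 5.43 ± 4.14 and 5.52 ± 1.14 CPM), and low counts limit Cd3e, Cd3d and Cd4. With 3 tumours against 4 an exact permutation test cannot go below 0.0571. None of the 7 to 10 markers tested was called under any setting. The number of genes called over the whole table was 24, and it was 93 without the expression filter, 437 with DESeq2, 50 with robust dispersion, 5 when ND 2 to ND 4 had their own term (which leaves ND 1 as the only ND tumour), and 0 to 12 when 1 library was left out. With the replicate number as a block it was 0 (edgeR, 1634 genes at an unadjusted p under 0.05), and 0 of the 7 markers tested had an unadjusted p under 0.05. Libraries with the same number had deviations correlated at 0.025, -0.011, -0.068 and 0.107, so the numbers were not taken to pair the tumours. The only other list counts that changed were those of macrophages, with 1 gene called without the filter, with DESeq2 and with robust dispersion, and of skeletal muscle, with 2 called without the filter and 1 with DESeq2. The Cd4 ratio was 4.72 to 7.04 without single libraries and 3.03 per Ptprc count.

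Directions of uncalled genes turned in several fits, and the cause was not tested. Under the ND 2 to ND 4 term the fold compares the 4 HCD tumours with ND 1 alone, assumed to vary like the rest, and is no corrected diet difference. Among genes whose sign turned, its log2 values were -0.04 for Cd3g, -0.54 for Cd8a, -0.70 for Cd8b1, -0.25 for Il2rb and -0.73 for Gzmb. Lcp2 (-0.23), Zbtb46 (-0.19), Csf3r (-0.14), Ptprc (-0.12), Cd247 (-0.68), Unk (-0.17), Plscr3 (-0.04), Ntng2 (-0.38), Bcl3 (-0.26) and Ly6c2 (-0.39) turned too. Other genes kept their sign, among them Prf1 (-0.76), Nkg7 (0.65), Trac (0.37), Cd53 (0.64) and Mrc1 (0.81). Leaving out single libraries gave ranges of -0.04 to 1.03 for Cd3g, -0.16 to 0.48 for Cd8a, -0.20 to 0.55 for Cd8b1, -0.38 to 0.40 for Gzmb, -0.54 to 0.15 for Prf1, -0.24 to 0.50 for Csf3r, -0.03 to 0.19 for Zbtb46, -0.07 to 0.09 for Unk and -0.02 to 0.40 for Ntng2. Among the markers, Il2rb (0.05 to 0.75) and Nkg7 (0.27 to 0.79) kept their sign in these fits. The lowest values of Cd3g, Cd8a, Gzmb, Prf1, Csf3r, Unk and Ntng2 were those without ND 2. Prf1 was at 0.19 with limma-voom and 0.06 with the replicate block. DESeq2 gave no adjusted p for 4 of the 7 tested markers.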
